A study of Mus musculus with 12 samples.

Results

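The genes described here encode the chemokines and their receptors in full-thickness distal colon of 12 mice, 6 with an epithelial loss of Sprouty2 and 6 without. Chemokines are small secreted proteins that draw leukocytes along a gradient, and their receptors are G protein-coupled receptors on the leukocytes. In the gut wall they fall into a few working groups. CXCL13, CCL19 and CCL21 hold B cells, T cells and dendritic cells in lymphoid follicles through CXCR5 and CCR7, and CCL20, made by the epithelium over a follicle, acts on CCR6. CCL25, CCL28, CX3CL1 and CXCL16 are known from epithelial cells and act on plasma cells, lymphocytes and macrophages. Atypical receptors bind chemokines without a G protein signal, and some of them take chemokines out of the tissue.

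Every gene whose symbol begins with Ccl, Cxcl, Ccr or Cxcr and ends in a number, with or without a letter, was taken, together with Cx3cl1, Cx3cr1, Xcl1, Xcr1 and Ackr1 to Ackr4. That gave 62 genes of the 35241 symbols measured, namely 40 ligands, 18 receptors and 4 atypical receptors. Of these, 40 had a mean of at least 0.5 over the 12 mice and entered the tests, beside 15880 genes in all. The remaining genes were too low, and Ccl1, Ccl26 and Ccl27b were listed at 0 in all 12 mice.

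Spry2IEKO mice carried Cre under the villin promoter (Vil1::Cre) and 2 floxed Spry2 alleles. The villin promoter is active in the intestinal epithelium, so other cells of the wall keep the gene. Spry2FF littermates carried the same floxed alleles without Cre. Litters A and B each gave 3 mice of either genotype, with 3 males and 3 females among Spry2FF and 1 male and 5 females among Spry2IEKO mice. The labels give an age of 6 weeks in one place and of 8 weeks in another. Values are transcript abundances per length and per library that the authors scaled once more between mice, summed per gene and called normalized TPM here. They summed to between 918816 and 1069158 in a mouse and are not counts, so the depth is unknown. Mice are named by genotype and number.

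Spry2 itself reached at most 22.5 normalized TPM in Spry2IEKO mice and at least 22.8 in Spry2FF mice. Its log2 difference was -0.45 (standard error 0.0877, adjusted p = 0.160 by limma), so the deleted gene was itself not called. The epithelial markers Epcam (924 to 1162) and the rest of a list of 10 were high in every mouse. Their sum ran from 8182 to 10607 in Spry2IEKO and from 9597 to 12047 in Spry2FF mice. Other cell types varied more. The sum of 10 B cell markers ran from 4.21 to 189.7 in Spry2FF and from 8.15 to 449.7 in Spry2IEKO mice, and Spry2IEKO 4 and Spry2IEKO 5 stood apart by fat cell genes, with a highest sum of 498 over 5 genes. In RNA of whole tissue, fewer cells of a type and less RNA per cell cannot be told apart.

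By mean level, 1 ligand led all others. Ccl6, a ligand of CCR1 on myeloid cells, had a mean of 272 normalized TPM and was followed by the epithelial ligand Ccl28 with 88.3. Next came Ccl21a, the CCR7 ligand of lymphatic vessels and lymphoid stroma, with 72.7, and the membrane-bound ligand Cx3cl1 with 52.3. Cxcl13 (23.2), the stromal ligand Cxcl12 (21.6), Cxcl16 (13.8), Ccl21b (11.5) and Ccl20 (11.3) completed the genes over 10. Receptors were lower, from 6.41 for Cxcr4 downward. The neutrophil attractants Cxcl1 (0.392), Cxcl2 (0.00618) and Cxcl3 (0.0626) and the receptors Cxcr1 (0.00870) and Cxcr2 (0.447) all lay under 0.5, as did the interferon-induced Cxcl9 (0.404) and Cxcl11 (0.227).

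The question behind the sorting into roles was how chemokines of follicles compare with those of the epithelium from mouse to mouse. The follicle genes spread widely and the epithelial genes did not. On the log2 scale, the SD over the 12 mice had a median of 1.69 (from 1.22 to 2.44) over the 8 follicle genes tested and of 0.235 (from 0.163 to 0.770) over the 5 epithelial genes tested, against 0.246 over all 15880 genes. The other roles lay between, with medians of 0.534 for 12 myeloid genes, 0.649 for 7 lymphocyte genes, 0.580 for 3 stromal genes and 0.526 for the 4 atypical receptors.

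Cxcl13 (ENSMUSG00000023078, chromosome 5, 95956951 to 95961068), the attractant of follicular B cells, showed the spread best. In Spry2FF mice it was 0.992 at the lowest, 3.14 at the median and 41.5 at the highest, and in Spry2IEKO mice 2.43, 18.0 and 106. High and low mice occurred in both genotypes and both litters. Cxcr5 (ENSMUSG00000047880, chromosome 9, 44511787 to 44561877), its receptor on B cells and follicular helper T cells, ran from 0.0432 over a median of 0.289 to 7.84 in Spry2FF and from 0.0557 over 1.75 to 16 in Spry2IEKO mice. The 5 mice highest in the ligand were also the 5 highest in the receptor.

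Ccl20 (ENSMUSG00000026166, chromosome 1, 83116766 to 83119167) was 2.38, 3.89 and 23.7 at the lowest, median and highest Spry2FF mouse and 5.07, 8.35 and 32.0 in Spry2IEKO mice. Its receptor Ccr6 (ENSMUSG00000040899, chromosome 17, 8236043 to 8257141), found on B cells and other lymphocytes, was 0.0923, 0.443 and 4.95 in Spry2FF and 0.225, 1.74 and 11.3 in Spry2IEKO mice. The genotypes overlapped in both genes. Ccl19, the T zone ligand of CCR7, was listed at 0 in 5 mice and reached 8.16 in Spry2FF 3 and 17.7 in Spry2IEKO 4.

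The epithelial ligands made a different picture. Ccl28 (ENSMUSG00000074715, chromosome 13, 119623819 to 119654359), which attracts CCR10-bearing IgA plasma cells, was 68.9, 90.5 and 100.3 at the lowest, median and highest Spry2FF mouse and 73.9, 89.8 and 98.1 in Spry2IEKO mice. Cx3cl1 (ENSMUSG00000031778, chromosome 8, 94772009 to 94782427), the ligand of CX3CR1 on macrophages, was 49.7, 54.8 and 61.0 in Spry2FF and 40.4, 49.9 and 55.2 in Spry2IEKO mice. In neither gene did the highest mouse reach 2 times the lowest.

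Cxcl16, the ligand of CXCR6, ran from 11.6 to 17.2 in Spry2FF and from 10.7 to 18.7 in Spry2IEKO mice, and Ccl25, the CCR9 ligand, from 5.67 to 8.70 and from 4.88 to 8.55. Cxcl5, an epithelial attractant of neutrophils, was the low and variable member of the role, from 1.35 to 4.62 in Spry2FF and from 0.319 to 1.91 in Spry2IEKO mice. Cxcl1, Cxcl2, Cxcl15 and Cxcl17 were under the filter. Ccl25 shares its locus with Elavl1 on the other strand (43.9), so its value rests on how reads were assigned to either.

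**Figure D1:**
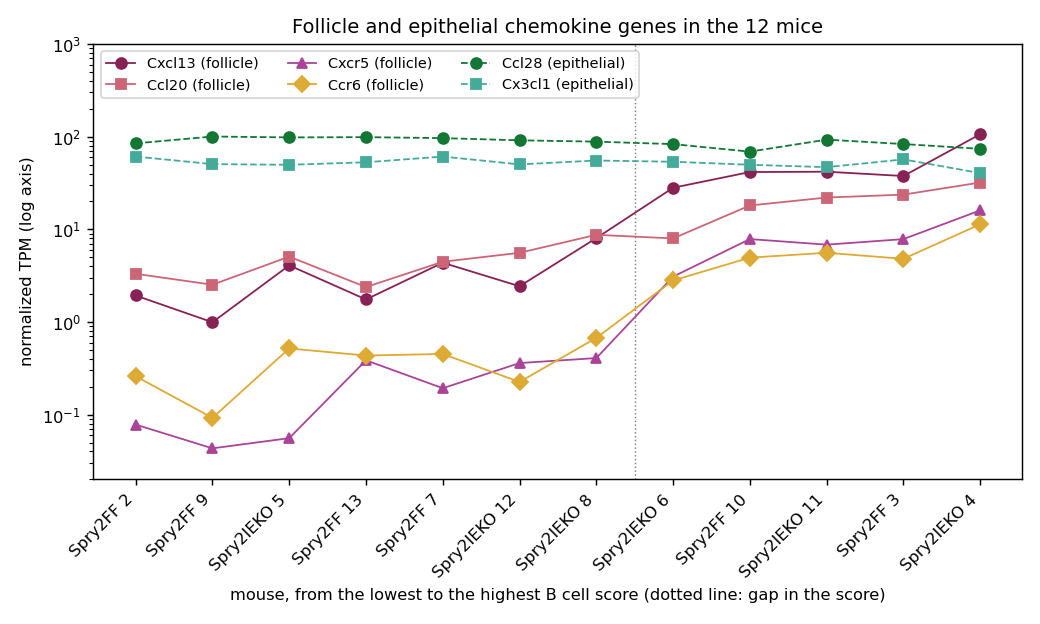
Normalized TPM (log axis) of 4 follicle genes (solid lines) and 2 epithelial genes (dashed lines) in each of the 12 mice, ordered by the B cell score, with a dotted line at the gap in that score. Cxcl13 and Cxcr5 step up at the gap, while Ccl28 and Cx3cl1 stay within 68.9 to 100.3 and 40.4 to 61.0.

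To place the spread beside the B cell content of each piece, a B cell score was formed as the mean, over 10 markers such as Cd79a and Ms4a1 (none of them a chemokine gene), of each marker's distance from its own mean in SDs. The score fell into a lower cluster of 7 mice (from -1.03 to -0.40) and an upper cluster of 5 (from 0.67 to 1.60), namely Spry2IEKO 6, Spry2FF 10, Spry2IEKO 11, Spry2FF 3 and Spry2IEKO 4. Both genotypes and both litters were in either cluster. Cxcl13 was at most 8.03 in the lower and at least 28.1 in the upper cluster. Cxcr5 was at most 0.408 and at least 3.08, Ccr6 at most 0.673 and at least 2.81, and Ccr7, the receptor that brings T cells and dendritic cells to CCL19 and CCL21, at most 0.518 and at least 1.61. Ccl20 overlapped between the clusters, with 7.97 in Spry2IEKO 6 against 8.72 in Spry2IEKO 8.

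A limma fit of every gene on the score gave the rise in log2(normalized TPM + 0.5) per unit of score. It called 10 of the 40 chemokine genes at an adjusted p under 0.05, all with a positive slope, against 2.61% of all genes tested with a positive slope and 2.64% in either direction. Of the 8 follicle genes 6 passed, and of the 5 epithelial genes none did. An unadjusted p under 0.05 was found for 2 of the epithelial genes, as for 9.23% of all genes. They were Cxcl16, which rose (0.19, adjusted p = 0.0730 by limma), and Ccl28, which fell (-0.13, adjusted p = 0.182). The filter had a part in these counts. Cxcr5, Ccl19, Ccr6, Ccr7 and Cxcr6 averaged under 0.5 in the 7 lower mice and entered the fit only through the mice in which they were high, so their calls, and the wide spread of these 4 follicle genes, are a description. Of the 34 chemokine genes with a mean of at least 0.5 in the 7 lower mice 5 were called, namely Cxcl13, Ccl20, Cxcr4, Ccl9 and Ccr1, beside 2.03% of all such genes with a positive slope. Median slopes were 1.51 over the follicle genes, -0.09 over the epithelial genes and 0.33 over all 40. The slope of Cxcl13 was 2.11 (standard error 0.132, adjusted p = 3.2e-07 by limma). Ccl19 (1.94), Cxcr5 (1.92), Ccr6 (1.53), Ccr7 (1.22) and Ccl20 (1.19) followed, each with a standard error of at most 0.175.

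The remaining 4 calls lay outside the follicle role. Cxcr4 (ENSMUSG00000045382, chromosome 1, 128588199 to 128592293), the CXCL12 receptor that B cells carry, had a slope of 1.36. It was 0.912, 2.18 and 10.5 at the lowest, median and highest Spry2FF mouse and 1.42, 5.53 and 25.5 in Spry2IEKO mice. Ccl9, a CCR1 ligand known from follicle-associated epithelium and myeloid cells, had a slope of 0.81 and its own receptor Ccr1 one of 0.56. Cxcr6, the CXCL16 receptor of T cells, had a slope of 0.61. Ccl9 separated the clusters, with at most 6.48 below and at least 9.70 above the gap, and Cxcr6 did as well, with 0.543 and 0.774, whereas Ccr1 overlapped.

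The CCR7 ligand Ccl21a did not follow its group. Its slope was 0.68 (standard error 0.332, adjusted p = 0.582 by limma), and it ran from 6.24 to 126.8 in the lower and from 46.9 to 161.5 in the upper cluster. Ccl21b had a slope of 1.5 but a standard error of 0.556 (adjusted p = 0.319). Ccl21a, Ccl21b and Ccl21c are near-identical copies, so the split among them is uncertain, and Ccl21c was above 0 in 2 mice. The epithelial slopes were small, at 0.19 for Cxcl16, 0.09 for Ccl25, -0.09 for Cx3cl1, -0.13 for Ccl28 and -0.31 for Cxcl5, none of them past the threshold.

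**Figure D2:**
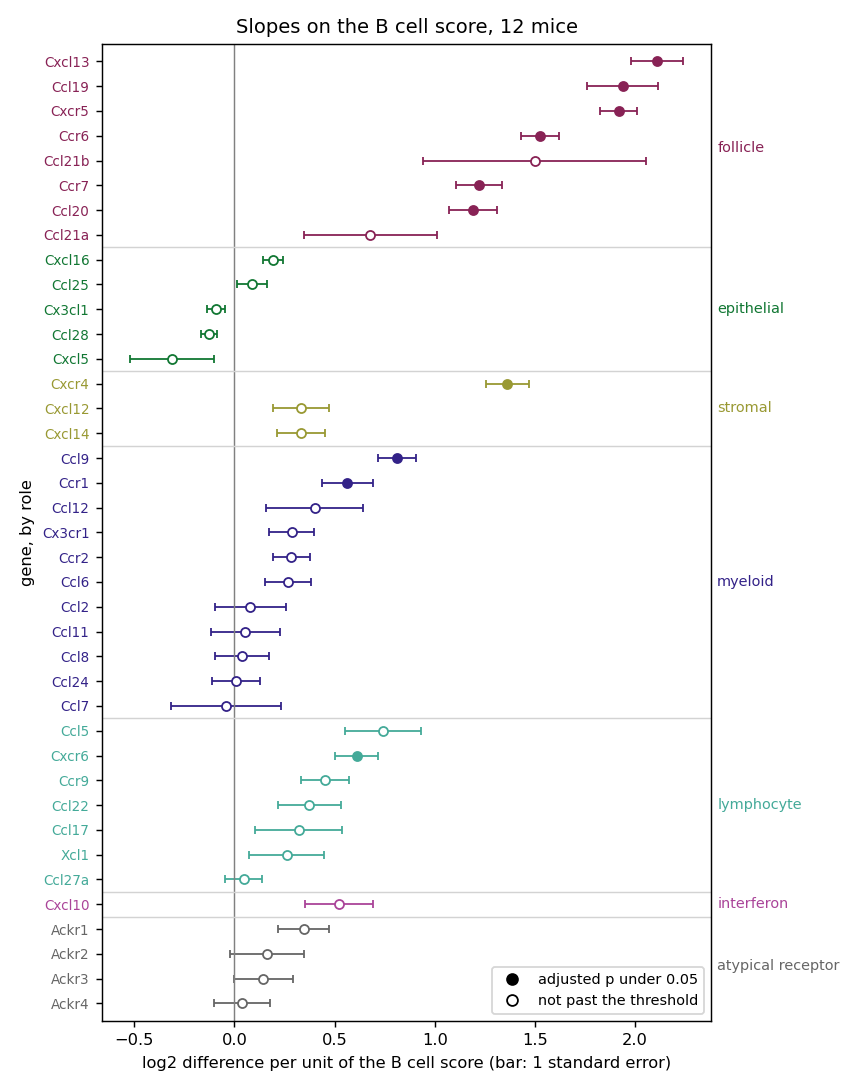
Slope of each of 39 chemokine genes on the B cell score (log2 difference per unit of score, x axis), with 1 standard error, sorted by role, from limma over 12 mice; filled points have an adjusted p under 0.05. The follicle genes lie between 0.68 and 2.11 and the epithelial genes between -0.31 and 0.19.

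Since the mice fell into clusters, these slopes rest on the step between them. Within the 7 mice of the lower cluster none of 34 chemokine genes passed (limma, 3 at an unadjusted p under 0.05, and 0 of 15728 genes called in all), the slope of Cxcl13 was 0.92, and that of Ccr1 turned to -0.03. The calls held in either genotype and either litter for some of the genes. Cxcl13, Cxcr5, Ccr6 and Cxcr4 passed in Spry2FF mice alone, in Spry2IEKO mice alone, in litter A alone and in litter B alone. For Cxcr5 and Ccr6, with means of 0.218 and 0.379 in the 7 lower mice, this too is a description. Ccl20 and Ccl9 missed the threshold in Spry2IEKO mice alone, Ccl19 in litter B alone, Ccr7 in Spry2FF mice and in litter B alone, and Ccr1 and Cxcr6 in all 4 subsets. Without Spry2IEKO 4, the mouse with the highest score, 8 genes were called, Cxcr6 and Ccr1 being lost. The call of Ccr1 was not firm, since it was lost on leaving out any of 7 mice and in 9 of 13 other settings, and its sign turned in 1 more.

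The B cell score moved together with T cell markers, of which Cd2 (slope 1.46), Cd3g (0.80), Lck (0.63) and Cd3e (0.60) passed among 5, and with Mzb1 (1.09) among 5 plasma cell markers. None of 10 epithelial, 8 macrophage, 5 smooth muscle, 5 fibroblast, 5 endothelial or 4 lymphatic markers passed. An unadjusted p under 0.05 with a positive slope was found for 3 of the macrophage markers (C1qa, C1qb and Csf1r) and 1 endothelial marker. In either direction 9.23% of all genes had one. Of 13 genes for lymphotoxins, NF-kB factors and addressins 7 passed, all with positive slopes, beside the 2.61% of all genes. The NF-kB genes Nfkb2 (0.24, adjusted p = 0.103 by limma) and Relb (0.04, adjusted p = 0.888) were among the 6 that did not. Ltb (1.75) and Lta (1.01) encode lymphotoxins, Tnfsf11 (0.90) encodes RANKL, and Madcam1 (0.91), Vcam1 (0.80) and Icam1 (0.81) encode adhesion molecules for homing lymphocytes. Glycam1, an addressin of high endothelial venules, had the steepest slope of them, 2.80. Unlike the chemokine genes, the genes of this list, of the marker lists and of the lists below were not split by their mean in the 7 lower mice. Low genes such as Tnfsf11 (mean 0.719) and Lta (1.06) may have entered only through the mice in which they were high.

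Proteins that carry chemokine receptor signals inside leukocytes were a further list. Of 33 tested, 10 passed with a positive slope and none with a negative one, beside the same 2.61% and with the same limit. They included Rac2 (1.47) and Dock2 (1.14), which drive actin at the leading edge, Pik3cd (0.82) and Pik3cg (0.61), which encode leukocyte PI3-kinases, and Was (0.89). Arrb2 (0.38), the arrestin that ends receptor signals, had one of the smallest slopes of these. Of 9 other chemotactic genes 3 passed against that share, namely the chemokine-like MIF receptor chain Cd74 (1.32), the oxysterol receptor Gpr183 (1.05) and the sphingosine phosphate receptor S1pr1 (0.75).

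The sequence before the start site gave a further description of the genes that moved together. In the 250 bases before the RefSeq start, the NF-kB consensus, searched on both strands, occurred in 4 of the 8 called genes that had a window. It occurred in 11 of 45 chemokine genes (24.4%), in 0 of 3 epithelial genes tested and in 8.23% of 27025 genes. Of the epithelial genes under the filter, Cxcl1 and Cxcl2 held a match and Cxcl15 did not. The letters TATAAA occurred in 3 of the 8, in 14 of the 45 chemokine genes (31.1%), in 2 of the 3 epithelial genes and in 14.3% of all genes. The last 120 bases before the start are printed for the 4 called genes with a match and for the 2 highest epithelial ligands without one, read in the direction of the gene in GRCm38.p6, with the match to the NF-kB consensus in capitals. A match is a string of letters and was not tested for binding.

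Ccl20 (chr1:83116646-83116765, plus strand): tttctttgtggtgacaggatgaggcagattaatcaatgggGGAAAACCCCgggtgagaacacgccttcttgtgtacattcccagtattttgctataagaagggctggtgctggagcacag
Ccr6 (chr17:8242406-8242525, plus strand): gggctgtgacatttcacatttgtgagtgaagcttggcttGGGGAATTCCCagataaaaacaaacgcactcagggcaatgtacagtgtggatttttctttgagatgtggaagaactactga
Ccl9 (chr11:83578637-83578756, minus strand): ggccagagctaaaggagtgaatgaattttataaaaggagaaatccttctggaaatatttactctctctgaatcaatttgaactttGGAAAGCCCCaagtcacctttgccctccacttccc
Ccr1 (chr9:123968693-123968812, minus strand): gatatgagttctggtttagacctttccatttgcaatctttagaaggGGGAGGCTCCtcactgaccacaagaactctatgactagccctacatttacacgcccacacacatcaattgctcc
Ccl28 (chr13:119623699-119623818, plus strand): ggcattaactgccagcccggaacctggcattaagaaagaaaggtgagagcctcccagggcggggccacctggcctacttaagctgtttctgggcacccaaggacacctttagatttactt
Cx3cl1 (chr8:94772060-94772179, plus strand): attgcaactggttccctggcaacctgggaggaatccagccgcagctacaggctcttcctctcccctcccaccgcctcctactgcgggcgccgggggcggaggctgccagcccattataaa

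The match lay 80 to 71 bases before the start in Ccl20, 81 to 71 bases before it in Ccr6, where 2 matches overlap, 74 to 65 bases before it in Ccr1 and 35 to 26 bases before it in Ccl9. In Ccr6 and Cx3cl1 the RefSeq start lies inside the GENCODE M21 gene, so those windows are upstream of the RefSeq transcript only. In the other 4 genes the windows end at the base before the GENCODE gene. No match of the consensus within these letters says only that they are not in this window.

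**Figure D3:**
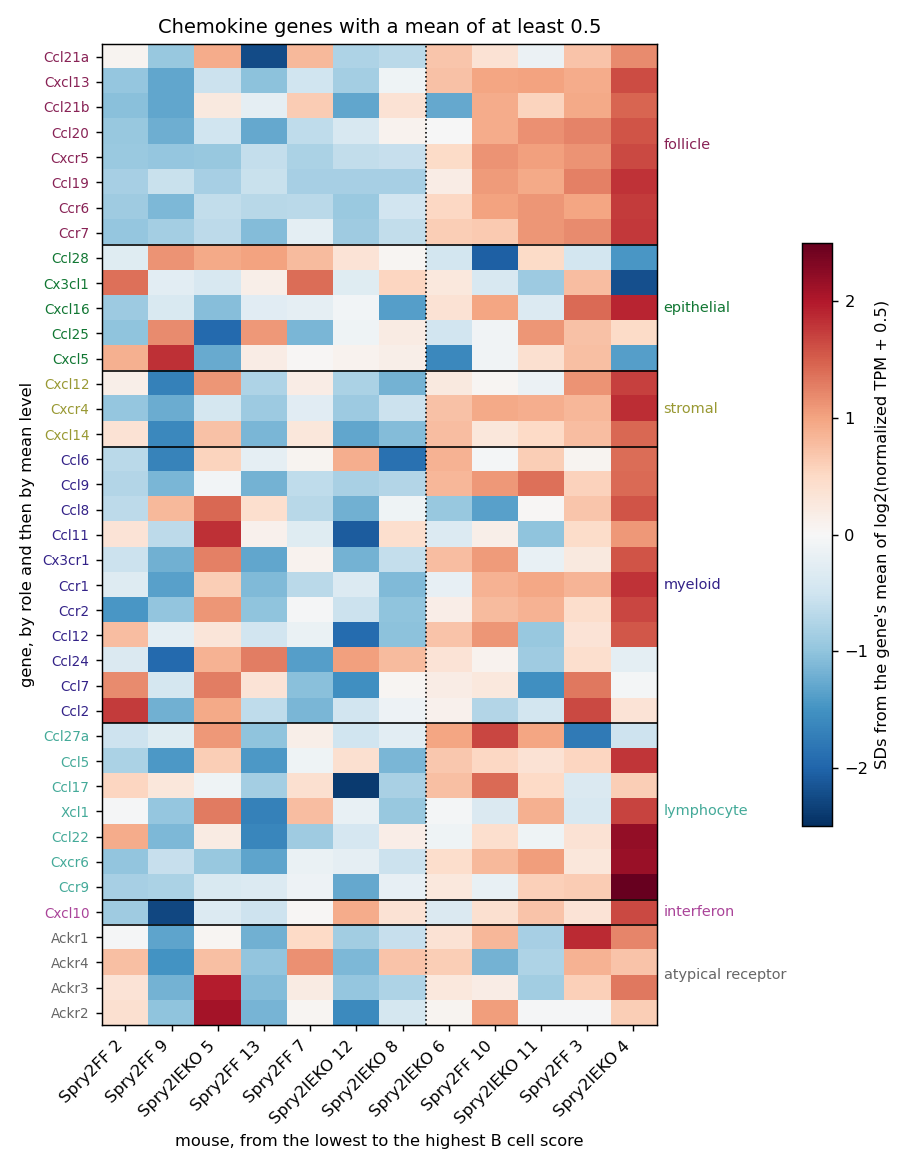
Each of 39 chemokine genes (rows, by role and then by mean level) in each of the 12 mice (columns, by B cell score), coloured by the distance in SDs from the gene's own mean of log2(normalized TPM + 0.5). The follicle rows change from blue to red at the dotted line after the 7 lower mice. Exceptions are Ccl21a, Ccl21b and, in the mice on either side of the line, Ccl20. The epithelial rows do not share that step, apart from a partial rise of Cxcl16. Cxcl16 ran from 10.7 to 13.4 normalized TPM in the lower and from 12.8 to 18.7 in the upper mice.

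The comparison the mice were bred for, Spry2IEKO against Spry2FF, gave no chemokine gene past the threshold. None of 40 was called by limma, beside 0.0315% of all genes, which is 5 genes. The deleted gene Spry2 was not called by this test either (adjusted p = 0.160). An unadjusted p under 0.05 was found for 2 of the 40 and for 6.18% of all genes. In none of the 40 were all 6 mice of a genotype above or below all 6 of the other, as they were in 0.403% of all genes tested. Among the members under the filter Cxcl11 did separate the genotypes, with at most 0.0967 in Spry2FF and at least 0.234 in Spry2IEKO mice. These levels are too low for a test here, and the share of all genes under the filter that separate was not computed. Cxcl11 is annotated as a polymorphic pseudogene and overlaps Art3 (50.5) on the other strand. The log2 difference was above 0 in 30 of the 40, with a median of 0.23, against 8280 of 15880 and a median of 0.01 over all genes. By role, 8 of 8 follicle genes were on the positive side (median 0.59) and 0 of 5 epithelial genes (median -0.06). The B cell markers were also on the positive side in 10 of 10, with a median of 1.11 and none past the threshold. The epithelial markers were on the negative side in 8 of 10, with a median of -0.16, none past the threshold and 5 (Vil1, Cdh1, Krt19, Krt20 and Krt8) at an unadjusted p under 0.05. Their part in the values of the epithelial ligands was not tested. With the B cell score as a covariate the difference of Cxcl13 moved from 1.31 to 0.24 and that of Ccl20 from 0.79 to 0.19.

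The largest follicle difference was that of Cxcl13, with a standard error of 1.05 and an adjusted p of 0.887 by limma. The exact two-sided permutation test of 6 mice against 6 gave p = 0.426. The difference of Ccl20 (0.79 ± 0.614, with its standard error) was likewise little more than its error. Those of Ccr6 (0.69 ± 0.779) and Cxcr5 (0.64 ± 0.983) were smaller than their errors. Ccl28 differed by -0.01 with a standard error of 0.0976, which bounds it more closely than any follicle gene, and its sign turned with several settings. Without Spry2IEKO 4 and Spry2IEKO 5 the difference of Ccl21a turned from 0.55 to -0.02.

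Cxcl5 (ENSMUSG00000029371, chromosome 5, 90759360 to 90761624) had an unadjusted p under 0.05. It was 1.35, 2.03 and 4.62 at the lowest, median and highest Spry2FF mouse and 0.319, 1.02 and 1.91 in Spry2IEKO mice. The 3 Spry2IEKO mice of litter A, at 0.319 to 0.494, lay below all other mice, while those of litter B overlapped with Spry2FF mice. The log2 difference was -0.93 (standard error 0.338, adjusted p = 0.728 by limma; two-sided exact permutation p = 0.0390), and by litter -1.52 in A and -0.33 in B. A genotype by litter term over all genes called no chemokine gene (background 0.0126%), and Cxcl5 (1.19, adjusted p = 0.998) and Ccl12 (-1.79, adjusted p = 0.998) were the only members with an unadjusted p under 0.05, as 4.19% of all genes had. The sexes were unequal in litter A, where the Spry2FF mice were 2 males and 1 female and the Spry2IEKO mice all female. The female, Spry2FF 7, was at 1.47. With sex as a covariate over all mice the difference was -0.66 (adjusted p = 0.999 by limma).

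**Figure D4:**
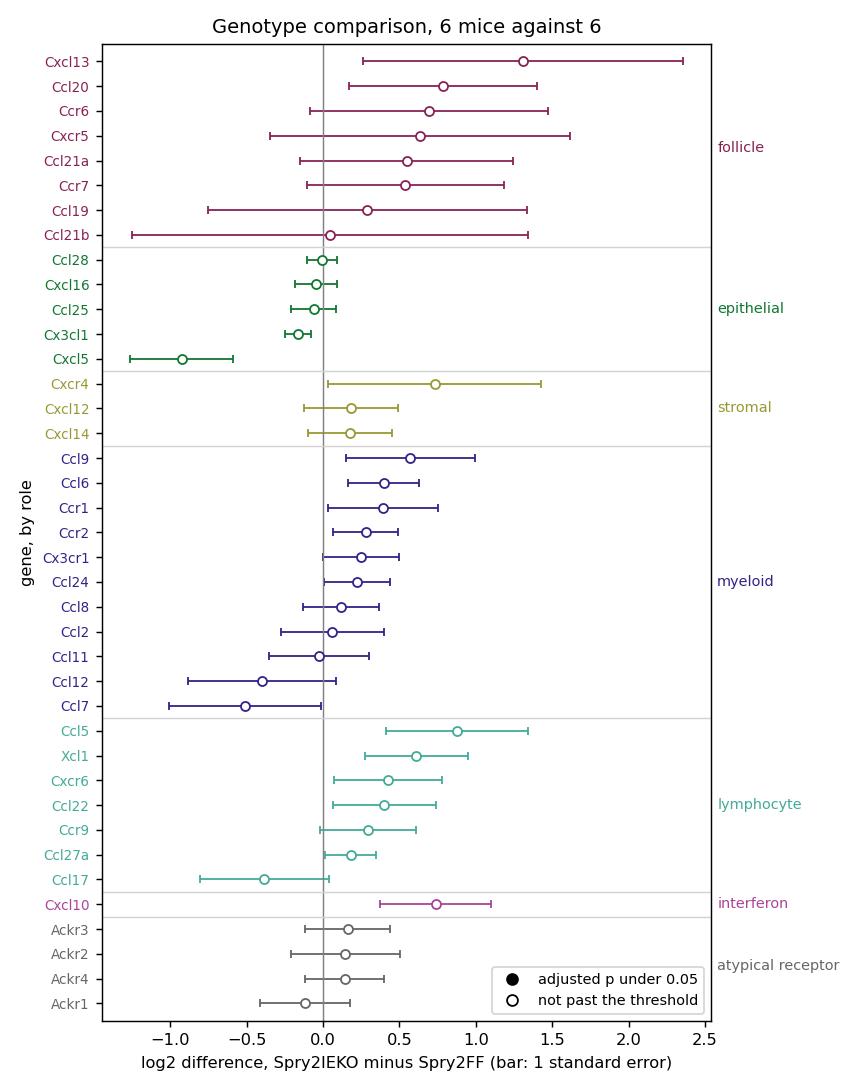
Log2 difference between Spry2IEKO and Spry2FF mice (x axis, 6 mice each) with 1 standard error for 39 chemokine genes by role, from limma. All points are open, since none had an adjusted p under 0.05, and the follicle genes carry the widest bars.

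Among the highly expressed genes of other roles, Ccl6 was 148, 248 and 266 at the lowest, median and highest Spry2FF mouse and 139, 332 and 413 in Spry2IEKO mice (log2 difference 0.40, standard error 0.233, adjusted p = 0.839). In 5 Spry2IEKO mice it was at least 312, above every Spry2FF mouse, and Spry2IEKO 8, the male of the group, was the lowest of all 12. Ccl8, a ligand known from resident macrophages, ran from 2.89 to 6.13 in Spry2FF and from 3.07 to 7.94 in Spry2IEKO mice. Ccl27a, known as a skin ligand of CCR10, ran from 5.57 to 11.9 and from 7.38 to 10.5, and overlaps Il11ra1 (35.8) on the other strand.

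Cxcl10, the interferon-induced ligand of CXCR3, was 0.117, 1.31 and 2.0 in Spry2FF and 1.18, 2.21 and 4.34 in Spry2IEKO mice, with a log2 difference of 0.74 (standard error 0.363, adjusted p = 0.826). It lies within Art3 (50.5) on the other strand. Ccl5, made by T cells and NK cells, was 0.632, 1.77 and 3.79 against 0.881, 3.73 and 9.39. Ccl17, a dendritic cell ligand of CCR4, was 0.668, 1.75 and 3.57 against 0, 1.60 and 2.32. In all 3 the genotypes overlapped.

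Litter separated more chemokine genes than genotype. With genotype as a covariate, 4 of 40 were lower in litter B and none was higher, beside 3.31% of all genes lower and 4.38% called in either direction. Ccl21a (ENSMUSG00000094686, chromosome 4, 42772860 to 42773993) was 56.8, 109.9 and 161.5 at the lowest, median and highest mouse of litter A and 6.24, 27.2 and 75.4 in litter B. The log2 difference was -1.97 (standard error 0.453, adjusted p = 0.0344 by limma), and Spry2FF 2 of litter A overlapped with Spry2FF 10 of litter B. With the copies Ccl21b and Ccl21c added it was -1.87 (adjusted p = 0.0458).

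Cxcl12 (ENSMUSG00000061353, chromosome 6, 117168535 to 117181367), which stromal and endothelial cells make, was 21.3, 26.8 and 40.5 in litter A and 9.93, 14.5 and 20.5 in litter B, with a log2 difference of -0.87 (adjusted p = 0.0334). Its scavenger Ackr3 (ENSMUSG00000044337, chromosome 1, 90203980 to 90216751) was 4.39, 4.87 and 8.60 against 2.48, 2.78 and 4.33 (-0.80, adjusted p = 0.0316). In both genes every mouse of litter A was above every mouse of litter B, as in 2.94% of all genes. Ackr4 (ENSMUSG00000079355, chromosome 9, 104084157 to 104126933), which removes CCL19, CCL21 and CCL25, was 5.50, 5.79 and 6.66 against 2.53, 2.99 and 5.72 (-0.76, adjusted p = 0.0248). Spry2IEKO 8 alone lay within the range of litter A, and Acad11 (58.5) overlaps the gene on the other strand.

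**Figure D5:**
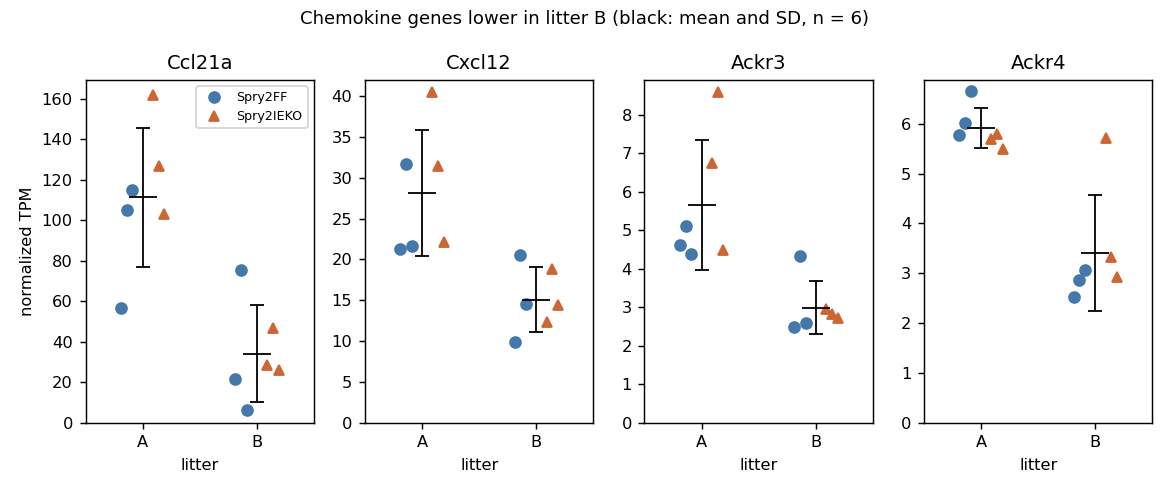
Normalized TPM of Ccl21a, Cxcl12, Ackr3 and Ackr4 in each mouse by litter (circles Spry2FF, triangles Spry2IEKO), with the mean and SD of 6 mice in black. Litter B lies lower in each panel, and the litters do not overlap for Cxcl12 and Ackr3.

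These calls were not firm. None of the 4 passed among females alone or without the 2 mice rich in fat genes, and leaving out a single mouse gave between 0 and 8 calls. No call was left without Spry2FF 3, Spry2FF 9, Spry2IEKO 5 or Spry2IEKO 12. Vessel and stroma markers moved the same way. Of 4 lymphatic markers 3 were lower in litter B, namely Flt4 (-1.16), Lyve1 (-1.09) and Reln (-1.39), as were 4 of 5 endothelial and 3 of 5 fibroblast markers. The summed lymphatic markers ran from 5.14 to 27.2 in Spry2FF and from 11.2 to 41.1 in Spry2IEKO mice.

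After the litter values had been seen, slopes on the lymphatic score (formed as the B cell score was, from those 4 markers) were added. Of the chemokine genes 6 passed, all positive, beside 1.52% of all genes with a positive slope and 2% in either direction. Ccl21a led them with 1.37 (standard error 0.103, adjusted p = 4.54e-05 by limma), ahead of Xcl1 (0.60), Cxcl12 (0.49), Ackr3 (0.47), Cxcl14 (0.43) and Cx3cr1 (0.39). With the lymphatic score as a covariate the litter difference of Ccl21a was 0.39. Within litter A the slope of Ccl21a was 0.50 and within litter B 1.30, and none of these genes passed within a litter of 6 mice. With litter as a covariate in all 12 mice the slope of Ccl21a was 1.44 (adjusted p = 0.0353 by limma), and it was the 1 chemokine gene still called.

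The slopes on an epithelial score of 10 markers called no chemokine gene (0.309% of all genes). An unadjusted p under 0.05 was found for 22 of the 40, 21 of them with a negative slope, where 17% of all genes had one and 11% one with a negative slope. All 8 follicle genes had a negative slope on it, with a median of -1.34, and 4 of 5 epithelial genes a positive one, with a median of 0.14.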

How the data were processed

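The samples were 6 Spry2IEKO and 6 Spry2FF mice, each giving 1 library of distal colon RNA, with genotype, litter and sex from the labels. The authors pseudoaligned reads with kallisto to the mouse transcriptome (mm10) and obtained TPM; sleuth and CASAVA are also named in the submitters' processing notes. The deposited signal is TPM scaled again between mice. It is not counts, so no count test was run, the depth is unknown and no counting interval is given. Columns of the authors' own comparison were not used.

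Of 113974 entries, 781 repeated a transcript and were dropped, and the values of a gene were summed. Names of 28 genes that had turned into dates were restored. The 15880 genes averaging 0.5 or more were fitted in R 4.3.3 by limma 3.58.1 (two-sided; lmFit, then eBayes with a trend; adjustment after Benjamini and Hochberg over all genes) on log2(signal + 0.5), which understates changes of low genes. Markers that formed a score were left out of its slopes. Exact permutation tests of single genes and figures used SciPy 1.17.1, matplotlib 3.10.9, pandas 2.3.3 and NumPy 2.4.6 under Python 3.11.15. Positions are those of GENCODE M21 (GRCm38), and start sites and sequences those of RefSeq (GRCm38.p6), in which 45 of the 62 genes had a window. The fits were tested on simulated data.

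Values by genotype, litter or cluster were to be given for the 5 follicle and 5 epithelial genes with the highest means. The 3 highest tested genes of each other role were added, with members at an unadjusted p under 0.05 for genotype. Of these, Ccl21b and Cxcl14 are described without such ranges. Cxcr6, Ccr1, Ccl19, Ccr6, Ccr7, Cxcl11, Ccl12, Xcl1, Cx3cr1, Ccl22 and Ccr9 were named after their values were seen. The values of 1 tested gene are not reported or drawn here, though it is in the counts. Members and lists were chosen with earlier results of these data known. Planned correlations with the B cell score were replaced by limma slopes, since the score falls into clusters. Alternatives were the pseudocount, the filter, quantile normalization, covariates, subsets of mice and leaving out each mouse. The slopes on the lymphatic score, the fits without the 2 mice rich in fat genes and the fit below the gap were added after the data were seen.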

Additional observations from a re-analysis of the deposited data

Results flagged for a closer look

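In 6 of 80 groups of 6 mice (40 genes in either genotype) the highest or lowest mouse stood apart from the rest by Dixon's criterion, where chance alone gives about 1 in 20 groups. Spry2IEKO 4 accounted for 5 of them, all on the high side. Its Ccl19 was 17.7 normalized TPM, against at most 5.12 in the other Spry2IEKO mice, and its Ccl21b was 53.3, against at most 11.3. Its Cxcr4 was 25.5 against at most 10.1, its Ccl22, a dendritic cell ligand of CCR4, 4.04 against at most 1.40, and its Ccr9, the CCL25 receptor of gut-homing lymphocytes, 2.34 against at most 0.824. This mouse also had the highest B cell and T cell scores of the 12, and its epithelial score was -1.16. The sixth value was low. Ccl6 was 139 in Spry2IEKO 8, against at least 312 in the other Spry2IEKO mice. The part of sex or cell content in these values was not tested.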

How the results depend on the processing

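No chemokine gene was called for genotype or for genotype by litter under any alternative run. For genotype, 5 genes of all were called, 2 with quantile normalization, in females only and in litter A only, 1 with no filter, with sex or the B cell score as a covariate, in litter B only and without the 2 mice rich in fat genes, and 1 to 11 on leaving out a mouse. The genotype difference of Ccl28 turned positive with quantile normalization (0.00372), sex (0.00271) or the B cell score (0.0634) as a covariate, in females (0.00858), in litter B (0.0438) and without the fat-rich mice (0.0134), and ran from -0.0764 to 0.0421 on leaving out a mouse. That of Ccl21a became -0.0211 without the fat-rich mice. For litter, 696 genes and 4 chemokine genes were called. These became 422 and 1 with no filter, 1 and 0 in females, 17 and 0 without the fat-rich mice, 0 and 0 with the lymphatic score as a covariate (where Ccl21a turned to 0.392), and 180 to 957 and 0 to 8 on leaving out a mouse. The 2 genes called for genotype by litter were 0 at a mean of at least 2 and 2 to 5 on leaving out a mouse. For the B cell slope, 419 genes and 10 chemokine genes were called. At a mean of at least 2 the genes were 271. They were 182 in Spry2FF mice, 108 (chemokine genes 6) in Spry2IEKO mice, 201 in litter A, 144 (chemokine genes 6) in litter B, and 0 (chemokine genes 0, Ccr1 at -0.0291) below the gap, and 262 to 496 (chemokine genes 8 to 12) on leaving out a mouse. For the epithelial slope, 49 genes became 26 with no filter, 118 at a mean of at least 2, 0 with genotype and litter and 1 with the B cell score as covariates, and 0 to 214 (chemokine genes 0 to 3) on leaving out a mouse. For the lymphatic slope, 318 genes and 6 chemokine genes became 3 and 1 with litter as a covariate, 0 and 0 in either litter, and 7 to 447 and 1 to 6 on leaving out a mouse. Smaller subsets hold fewer mice, and for the other changes the cause was not tested. No paired analysis was possible because the genotypes share no replicate numbers. With litter as a covariate instead, genotype called 6 genes and 0 chemokine genes. With unknown depth the precision of values under 0.5, at which several follicle genes lay in the 7 lower mice, cannot be given, and 6 mice a group leave differences of the variable follicle genes poorly resolved.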

Other observations

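Genes of the family below the filter were described by level alone. Ccr10, the receptor of CCL28 on IgA plasma cells, had a mean of 0.413 normalized TPM and lies at a locus shared with Cntnap1. Xcr1, which marks cross-presenting dendritic cells, had a mean of 0.363, Cxcr3 of 0.369, Ccr4 of 0.222 and Ccr8 of 0.165. Ccr3, the eotaxin receptor of eosinophils, was at 0.0164 and was listed at 0 in 7 mice, although its ligand Ccl11 had a mean of 4.89 and Ccl24 one of 1.44.

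The highest ligand, Ccl6, had no steep slope on the B cell score (0.27, adjusted p = 0.476 by limma), and its receptor Ccr1 had a mean of 2.12. The atypical receptor Ackr1, which stands on venules, ran from 2.76 to 10.2 in Spry2FF and from 3.34 to 7.90 in Spry2IEKO mice and shares its locus with Cadm3 on the same strand.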
